A study of Homo sapiens with 9 samples.

Results

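The BCL2 family sets whether the mitochondrial outer membrane of a cell stays closed, and the transcripts of 10 of its genes were followed here in FaDu, an established human cell line from a squamous carcinoma of the hypopharynx. The genes were taken by name from the deposited table of read counts: the pro-survival genes MCL1, BCL2L1 and BCL2, the effectors BAX and BAK1, and the BH3-only genes BID, BCL2L11, PMAIP1, BBC3 and BIK. They are 10 of 58735 genes in the table, and 10 of 10 were among the 16812 genes with enough counts to be tested. The study sequenced the RNA of 9 FaDu cultures in 3 groups of 3, labelled as biological replicates. The control group (NC_NC) had the genotype label WT, a further group (KD_NC) the label AMIGO2 knockdown, and the last group (KD_OE) AMIGO2 knockdown & CAPN2 overexpress, with no treatment given for any of them. AMIGO2 encodes a cell-surface adhesion protein and CAPN2 the catalytic subunit of calpain-2, a calcium-dependent protease. All groups are cultures of 1 cell line, and how the knockdown and the overexpression were made is not given in the sources used here. P-values therefore measure only the spread between these cultures.

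Pro-survival BCL2 proteins hold BAX and BAK1 in check. BH3-only proteins are induced or activated by stress and either occupy the groove of the pro-survival proteins or engage BAX and BAK1 directly, and the effectors then open the outer membrane and release cytochrome c, which starts the caspase cascade. Many squamous carcinomas depend on MCL1 and on BCL-xL, the main product of BCL2L1. Much of the regulation of the family lies in protein stability, cleavage and binding, which RNA counts do not measure. Counts per gene also do not separate isoforms of opposite function, such as the long and short forms of BCL2L1 and of MCL1.

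Library totals lay between 15158607 and 19737562 counts, at which 3 counts correspond to 0.149 to 0.203 CPM (counts scaled by library size). AMIGO2 stood at 29.5, 26.1 and 27.2 CPM in control, at 24.5, 31.3 and 27.3 CPM in the libraries labelled KD_NC and at 42.8, 35.3 and 38.8 CPM in those labelled KD_OE, so its RNA was not seen to fall in either group that carries a knockdown label (log2 fold change 0.01 ± 0.115 and 0.50 ± 0.114 against control, SE, edgeR adjusted p = 0.971 and 0.00106). CAPN2 was 1.19-fold higher in the libraries labelled KD_OE than in those labelled KD_NC (adjusted p = 0.012), with a log2 difference of 0.11 from control (adjusted p = 0.254). Directions below are therefore differences between libraries named by their labels, not effects of a measured knockdown or overexpression. The libraries labelled KD_NC differed most among themselves, with a mean chi-square per gene of 20.9 to 21.5 between libraries against 2.69 to 7.52 within the other groups. Of 9 squamous epithelial markers none was at 0 in any group, and their summed level was 8950 to 9420 CPM in control, 4780 to 5880 CPM under the KD_NC label and 5190 to 5820 CPM under the KD_OE label. Most of that drop was KRT5 (4437, 1207 and 1616 CPM). Against control 6 of the 9 were called lower and 1 higher in each group, where 18.5% and 28.4% of all genes were called lower. KRT14 (log2 -1.07 and -2.24), KRT6A (-1.15 and -1.61), SFN (-0.55 and -1.65) and DSP (-0.82 and -0.64) were lower in both. KRT17 was not called against control, and CDH1 was higher in both groups (log2 0.26 and 0.69, edgeR adjusted p = 0.0181 and 6.47e-07). Summed endothelial markers (5 genes) stood at 17.6 to 22.5 CPM in control, 43.3 to 49.5 CPM under the KD_NC label, mostly CDH5 (43.2 CPM), and 16.2 to 16.5 CPM under the KD_OE label. In the same order those of fibroblasts (6) stood at 8.19 to 9.73, 11 to 14 and 13.5 to 15.6 CPM, mostly COL1A1 (8.98, 12.0 and 14.6 CPM). Those of blood cells (6) stood at 14.7 to 18.8, 18.5 to 25.5 and 5.62 to 9.12 CPM, mostly CD14 (16.0, 22.5 and 7.33 CPM). LUM of the fibroblast markers and KDR of the endothelial markers were at 0 in every group. The part of these markers in the differences below was not tested. In bulk RNA, fewer cells expressing a gene and less RNA per cell cannot be told apart.

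In the libraries labelled KD_NC, PMAIP1 and BIK rose and MCL1 and BAK1 fell against control. That is 4 of the 10 genes called changed at an adjusted p under 0.05, where 34.6% of all genes tested were called (16.0% higher and 18.5% lower). The median log2 difference of the 10 was -0.09, and that of all genes tested -0.01. Between the libraries labelled KD_OE and those labelled KD_NC, BBC3 rose and BAX, BAK1 and BID fell, again 4 of 10, against 49.2% of all genes (23.7% higher and 25.6% lower), with medians of -0.19 and 0.01. Between the libraries labelled KD_OE and control, PMAIP1, BIK and BBC3 rose and MCL1, BAX and BAK1 fell, 6 of 10 against 56.3% of all genes (27.9% higher and 28.4% lower), with medians of -0.24 and 0.02. The share called was thus close to that of all genes in each comparison. BAK1 was called in all 3 comparisons, which held for 13.6% of all genes, and BCL2L1, BCL2 and BCL2L11 in none, while 71.1% of all genes were called in at least 1. The libraries of the compared groups did not overlap for 5, 5 and 7 of the 10 genes, against 44.7%, 54.0% and 66.9% of all genes. Each group enters 2 of the 3 comparisons, so the comparisons are not independent of each other.

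**Figure D1:**
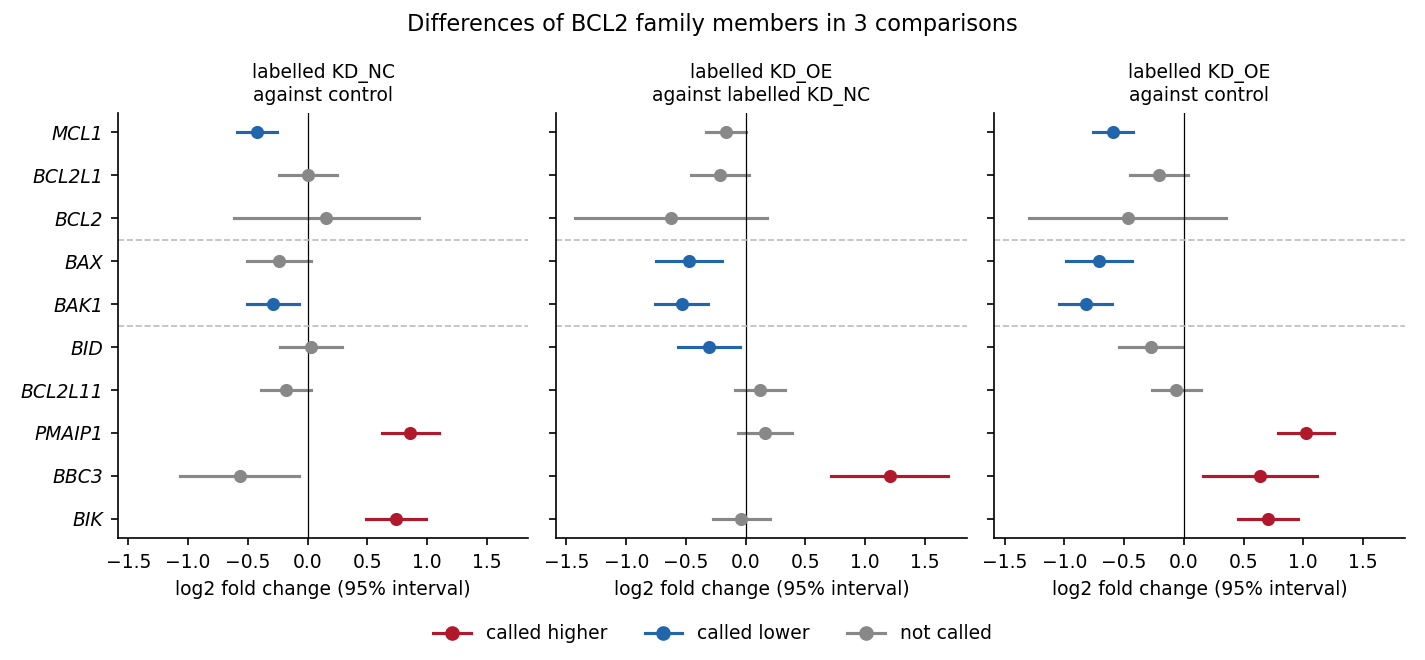
Log2 fold change of each of the 10 genes (points) with its 95% interval (lines) in the 3 comparisons, in the order pro-survival, effectors and BH3-only, coloured where edgeR's adjusted p was under 0.05. The effectors BAX and BAK1 lie left of 0 in every panel, and PMAIP1 and BIK lie right of 0 in both panels against control.

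Among the pro-survival genes MCL1 was lower in both groups with a knockdown label. MCL1 encodes a short-lived protein that binds BAK1 and most BH3-only proteins (chromosome 1, 150574551 to 150579738, minus strand, GRCh38, as all positions here). It stood at 506, 502 and 491 CPM in the control libraries, at 358, 363 and 396 CPM under the KD_NC label and at 333, 336 and 325 CPM under the KD_OE label. The 3 groups did not overlap, and control was the highest. Against control MCL1 fell 1.34-fold under the KD_NC label (log2 -0.42 ± 0.0797, SE, edgeR adjusted p = 0.000445) and 1.5-fold under the KD_OE label (log2 -0.59 ± 0.0799, adjusted p = 4.05e-06). The step between those groups did not pass the test (log2 -0.17 ± 0.0797, adjusted p = 0.0896). It passed with DESeq2 (-0.19, adjusted p = 0.028) and without the first (-0.21, adjusted p = 0.0339) or the second library labelled KD_NC (-0.22, adjusted p = 0.0298). With the GC content and length correction the step was -0.040 (adjusted p = 0.585), and with upper-quartile factors -0.11 (adjusted p = 0.274).

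BCL2L1, the gene of BCL-xL (chromosome 20, 31664452 to 31723989, minus strand), overlapped between all groups. It stood at 56.2, 62.5 and 59.2 CPM in control, at 65.1, 50.3 and 63.4 CPM under the KD_NC label and at 44.2, 51.6 and 58.3 CPM under the KD_OE label. For the libraries labelled KD_NC against control the 95% interval of the log2 difference ran from -0.24 to 0.25 (adjusted p = 0.974). The libraries labelled KD_OE differed from control by -0.21 (interval -0.45 to 0.04, edgeR adjusted p = 0.138), a difference called only without the third of them (-0.31, adjusted p = 0.0443), and the difference from those labelled KD_NC, -0.21 (adjusted p = 0.136), passed without the second library labelled KD_NC (-0.36, adjusted p = 0.00974) and without the third labelled KD_OE (-0.32, adjusted p = 0.0468). The antisense gene ABALON covers 43.0% of the exon bases of BCL2L1, but held 203 counts in all libraries against 8606 for BCL2L1.

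BCL2, the founding member of the family and the target of venetoclax (chromosome 18, 63123346 to 63320128, minus strand), was close to the limit of detection. Its counts were 11, 16 and 23 in control, 24, 24 and 15 under the KD_NC label and 13, 13 and 11 under the KD_OE label, or 0.673 to 1.42 CPM over all libraries. With so few counts the intervals were wide: -0.62 to 0.93 on the log2 scale between the libraries labelled KD_NC and control, and -1.295 to 0.357 between those labelled KD_OE and control. From KD_NC to KD_OE, whose libraries did not overlap, the log2 difference was -0.63 (interval -1.43 to 0.18, edgeR adjusted p = 0.188). A difference of the size seen for MCL1 was not detectable for BCL2 at this depth.

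The effectors BAX and BAK1 were lowest in the libraries labelled KD_OE. BAK1 (chromosome 6, 33572547 to 33580293, minus strand) encodes the effector that sits in the outer membrane of healthy cells. It stood at 68.6, 77.7 and 76.6 CPM in control, at 62.6, 52.1 and 68.4 CPM under the KD_NC label and at 42.3, 40.7 and 43.1 CPM under the KD_OE label. The groups did not overlap, although the highest library labelled KD_NC lay just below the lowest control. BAK1 fell 1.77-fold between control and the libraries labelled KD_OE (log2 -0.82 ± 0.105, adjusted p = 2.07e-06), and 1.45-fold between those labelled KD_NC and those labelled KD_OE (log2 -0.54 ± 0.105, adjusted p = 0.000328). Its 1.22-fold fall under the KD_NC label (log2 -0.29 ± 0.103, edgeR adjusted p = 0.0382) was lost in 10 of 16 alternative analyses. The adjusted p was 0.255 without the second library labelled KD_NC (log2 -0.15), 0.135 and 0.128 without the second or the third control, and 0.0786 and 0.0577 without the first or the second library labelled KD_OE. With the GC content and length correction the log2 difference was -0.11 (adjusted p = 0.252), and that between KD_OE and control was -0.55 (adjusted p = 2.93e-06).

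BAX (chromosome 19, 48954815 to 48961798, plus strand) encodes the effector that moves from the cytosol to mitochondria. It stood at 46.3, 58.4 and 53.2 CPM in control, at 47.0, 34.8 and 52.5 CPM under the KD_NC label and at 30.2, 32.3 and 34.0 CPM under the KD_OE label. Control and the libraries labelled KD_NC overlapped, and every library labelled KD_OE lay below all others. BAX fell 1.39-fold from the libraries labelled KD_NC (log2 -0.48 ± 0.131, adjusted p = 0.00552) and 1.64-fold from control (log2 -0.71 ± 0.131, adjusted p = 0.000129). The latter was -0.41 after a correction for GC content and length (adjusted p = 0.000808). Between the libraries labelled KD_NC and control the log2 difference was -0.24 ± 0.129 (adjusted p = 0.166), and it passed only without the third library labelled KD_NC (-0.37, adjusted p = 0.041). Of all 45 pairs among the 10 genes, BAX and BAK1 had the most alike profile, with a root mean square difference of 0.0883 between their centred log2 CPM over the 9 libraries.

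Since BAX and BAK1 moved together, the bases before their starts are shown, 5′ to 3′, from RefSeq promoter windows on GRCh38.p14, with matches to the motifs searched in capitals. The motifs were the E-box CACGTG, the core of the cAMP response element TGACGT, a C/EBP-ATF element TGATGNAA, the GC box GGGCGG and the TATA box TATAAA, each on both strands. Over all 35116 windows of 300 bases (250 before and 50 after a start) they were present in 7.26%, 7.98%, 3.62%, 45.0% and 11.5%. The BAX sequence is chr19:48954625-48954874, plus strand, and the BAK1 sequence is chr6:33580277-33580526, minus strand, each of 250 bases.
BAX: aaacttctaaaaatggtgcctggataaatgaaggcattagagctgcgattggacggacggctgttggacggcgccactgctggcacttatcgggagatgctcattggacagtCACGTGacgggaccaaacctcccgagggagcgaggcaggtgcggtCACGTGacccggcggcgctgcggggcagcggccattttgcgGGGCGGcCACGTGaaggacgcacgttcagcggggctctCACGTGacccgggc
BAK1: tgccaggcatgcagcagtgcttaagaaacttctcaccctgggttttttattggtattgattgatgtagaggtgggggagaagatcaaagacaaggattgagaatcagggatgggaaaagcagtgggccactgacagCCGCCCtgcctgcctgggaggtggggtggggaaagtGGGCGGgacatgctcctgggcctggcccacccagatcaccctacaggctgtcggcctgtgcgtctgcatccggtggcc
The BAX window held 4 E-boxes, beginning at -138, -93, -45 and -14 from the start, and GC boxes at -52 and 9, the last of which lies past the bases shown. At least 4 E-boxes were present in 5 of all windows (0.0142%). BAK1 held no E-box, and had GC boxes at -114 and -78. The motif letters that the windows of BAX and BAK1 have in common are thus the GC box, of which at least 2 occur in 26.7% of all windows. A match of letters is a description and not a measured binding site.

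Of the 5 BH3-only genes, PMAIP1 and BIK rose against control in both other groups and BBC3 rose in the libraries labelled KD_OE. PMAIP1 encodes NOXA, which binds MCL1 and promotes its degradation (chromosome 18, 59899948 to 59904306, plus strand). It stood at 20.9, 20.5 and 22.9 CPM in control, at 34.4, 37.7 and 44.8 CPM under the KD_NC label and at 46.0, 41.1 and 43.6 CPM under the KD_OE label. The control libraries lay below all others, and the other groups overlapped. PMAIP1 rose 1.81-fold under the KD_NC label (log2 0.86 ± 0.113, edgeR adjusted p = 1.17e-05) and 2.03-fold under the KD_OE label (log2 1.02 ± 0.113, adjusted p = 3.24e-07). PMAIP1 is the most AT-rich of the 10 genes (37.2% GC), and log2 differences fell with GC content across 16802 genes (Spearman's rho -0.36 in the first and -0.29 in the second of these comparisons, genes not being independent). After correction for GC content and length its log2 differences were 0.56 and 0.72. Between the libraries labelled KD_OE and those labelled KD_NC the difference was 0.16 (interval -0.07 to 0.39, adjusted p = 0.232), and it passed only without the third library labelled KD_NC (0.26, adjusted p = 0.0463).

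BIK (chromosome 22, 43110748 to 43129712, plus strand) encodes a BH3-only protein of the endoplasmic reticulum. It stood at 26.3, 24.5 and 25.1 CPM in control, at 36.4, 39.5 and 50.9 CPM under the KD_NC label and at 39.0, 42.2 and 42.4 CPM under the KD_OE label. As for PMAIP1, control lay below all other libraries and the other groups overlapped. BIK rose 1.67-fold (log2 0.74 ± 0.118, adjusted p = 9e-05) and 1.63-fold (log2 0.70 ± 0.119, adjusted p = 4.95e-05) against control. The libraries labelled KD_OE differed from those labelled KD_NC by -0.04 (interval -0.28 to 0.21, edgeR adjusted p = 0.818), a sign that turned without the third library labelled KD_NC (0.11) and with upper-quartile scaling (0.02).

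BBC3 encodes PUMA, a BH3-only protein that binds all pro-survival members (chromosome 19, 47220822 to 47232766, minus strand). It stood at 11.4, 12.9 and 9.66 CPM in control, at 11.8, 4.83 and 6.45 CPM under the KD_NC label and at 17.5, 16.3 and 19.0 CPM under the KD_OE label. Every library labelled KD_OE lay above all others, and the first library labelled KD_NC lay within the control range while the other 2 lay below it. BBC3 rose 2.31-fold from the libraries labelled KD_NC to those labelled KD_OE (log2 1.20 ± 0.23, adjusted p = 0.000419), the largest difference of the 10 genes in any comparison. Against control it rose 1.55-fold (log2 0.64 ± 0.224, edgeR adjusted p = 0.0239), and this was lost without the first or the third control (adjusted p = 0.0593 and 0.0993) or without the first or the third library labelled KD_OE (0.0622 and 0.0904). BBC3 has the highest GC content of the 10 genes (69.7%), and after the correction for GC content and length that difference was 1.10 (adjusted p = 9.02e-06). Under the KD_NC label the log2 difference from control was -0.57 ± 0.236 (interval -1.07 to -0.07, adjusted p = 0.0734), which passed without the first library of that label (-1.01, adjusted p = 0.000229) and with no filter on low counts (adjusted p = 0.00528). It shrank to -0.28 without the second library of that label (adjusted p = 0.31) and with the GC content and length correction (adjusted p = 0.23).

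The bases before the starts of PMAIP1 (chr18:59899746-59899995, plus strand) and BBC3 (chr19:47232668-47232917, minus strand) are shown because both are BH3-only genes that were called higher under the KD_OE label than in control. Capitals mark the same motifs as above, and BIK had no window in the table used.
PMAIP1: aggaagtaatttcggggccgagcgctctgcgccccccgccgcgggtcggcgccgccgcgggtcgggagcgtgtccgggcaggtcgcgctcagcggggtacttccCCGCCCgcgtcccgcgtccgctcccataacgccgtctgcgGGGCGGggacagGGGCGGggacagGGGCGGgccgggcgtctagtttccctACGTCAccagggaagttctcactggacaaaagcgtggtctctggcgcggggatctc
BBC3: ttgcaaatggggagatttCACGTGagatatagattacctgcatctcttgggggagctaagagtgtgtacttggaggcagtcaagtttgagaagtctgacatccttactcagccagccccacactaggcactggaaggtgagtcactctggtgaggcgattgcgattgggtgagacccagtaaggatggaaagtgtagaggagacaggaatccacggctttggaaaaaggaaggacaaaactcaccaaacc
PMAIP1 held a cAMP response element core at -56 and GC boxes at -146, -106, -94 and -82, and BBC3 held an E-box at -232 and no other match. No C/EBP-ATF element was found in any of the 13 windows of the 8 genes with one, and MCL1, like BIK, had no window.

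BID and BCL2L11 had the smallest differences from control among the BH3-only genes. BID, which is activated by cleavage by caspase-8 and also by calpains (chromosome 22, 17734138 to 17774770, minus strand), stood at 47.4, 53.6 and 49.5 CPM in control, at 41.8, 48.0 and 63.8 CPM under the KD_NC label and at 39.6, 41.2 and 43.5 CPM under the KD_OE label. The libraries labelled KD_NC spread across the ranges of both other groups. BID fell 1.24-fold between the libraries labelled KD_NC and those labelled KD_OE (log2 -0.31 ± 0.125, adjusted p = 0.0494), a call at the edge of the threshold that was lost in 10 of 16 alternatives and had a log2 difference of -0.13 without the third library labelled KD_NC (adjusted p = 0.319). Leaving out the first or the third control or any library labelled KD_OE also ended it. Against control the libraries labelled KD_OE were lower without overlap, at a log2 difference of -0.28 ± 0.125 (edgeR adjusted p = 0.0687), which passed in 5 of 16 alternatives, among them the omission of any 1 library labelled KD_NC.

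BCL2L11 encodes BIM, a strong activator of BAX and BAK1 (chromosome 2, 111119378 to 111168447, plus strand). It stood at 34.6, 38.8 and 36.7 CPM in control, at 32.2, 33.4 and 31.4 CPM under the KD_NC label and at 34.4, 37.9 and 33.2 CPM under the KD_OE label. Its log2 differences were -0.18 (interval -0.39 to 0.03), 0.12 (-0.09 to 0.33) and -0.06 (-0.27 to 0.15) in the order KD_NC against control, KD_OE against KD_NC and KD_OE against control. The smallest adjusted p of these was 0.165, and it was 0.0292 after the correction for GC content and length (log2 -0.23). The antisense gene MIR4435-2HG shares 10.9% of the exon bases of BCL2L11 and held 3012 counts against 5268. Reads in the shared bases could be of either gene, and how they were counted is not given.

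**Figure D2:**
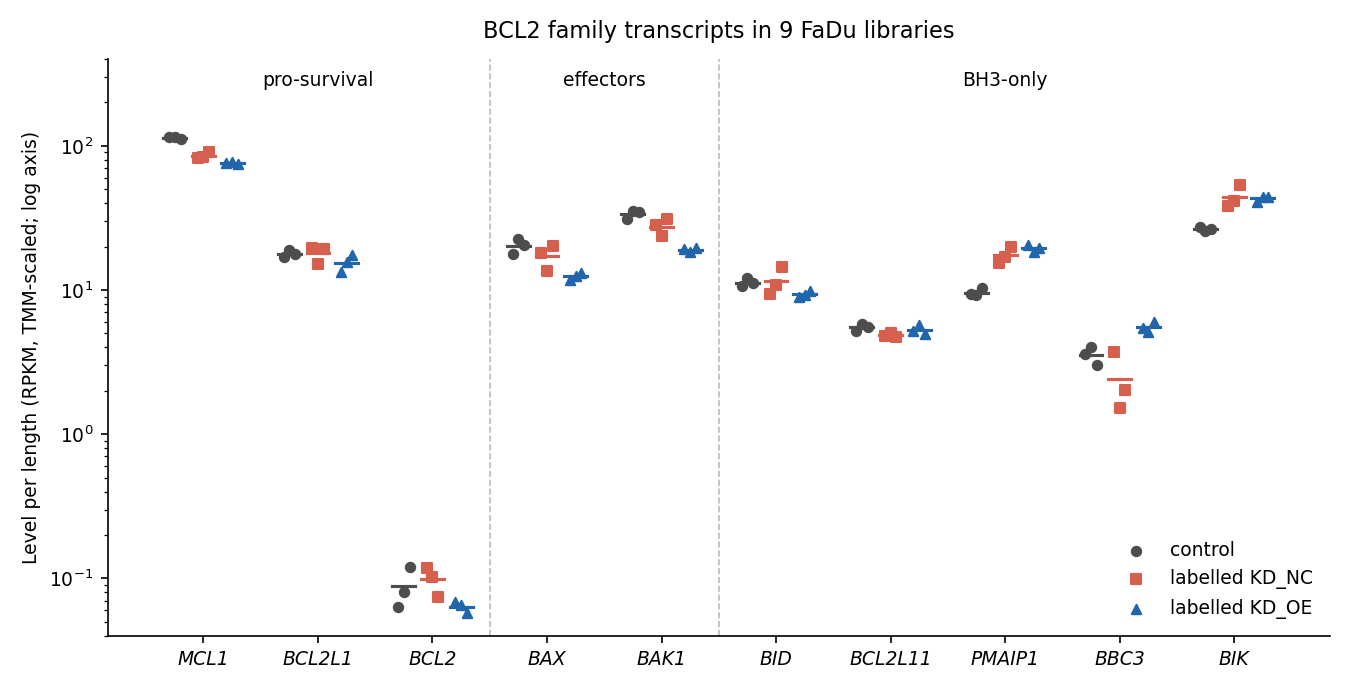
Level per length of the 10 genes in each of the 9 libraries, in RPKM on a log axis, with a short line at the mean of each group of 3. MCL1 stands highest in every group (114, 85.2 and 75.9 RPKM on average) and BCL2 lowest, below 0.15 RPKM.

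Per length of annotated exon (RPKM, the CPM divided by the gene length in kilobases), MCL1 had the highest level of the 10 genes in every group and BCL2 the lowest. In control the mean levels were 114 RPKM for MCL1, 33.6 for BAK1, 26.5 for BIK, 20.4 for BAX, 17.9 for BCL2L1, 11.3 for BID, 9.60 for PMAIP1, 5.51 for BCL2L11, 3.56 for BBC3 and 0.0879 for BCL2. In that order the libraries of neighbours overlapped only for BAX and BCL2L1. Under the KD_NC label BIK (44.4 RPKM) stood above BAK1 (27.6), and BCL2L1, PMAIP1, BAX and BID (17.98, 17.43, 17.3 and 11.52) each overlapped with the next. Under the KD_OE label PMAIP1 (19.5) and BAK1 (19.0) overlapped, as did BBC3 (5.53) and BCL2L11 (5.28). The place of BIK depends on its short annotated length of 953 bases: by CPM, without length, it was in place 7, 6 and 6 rather than 3, 2 and 2. The annotated exons of BCL2L11 span 6658 bases and those of BCL2 11765, so their levels per length are understated where shorter transcripts are made.

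Summed by role, the pro-survival transcripts were lower and the BH3-only transcripts higher in both groups with a knockdown label than in control, while the effector sum was lowest under the KD_OE label. The pro-survival sum was 132 ± 1.79 RPKM in control, 103 ± 5.93 RPKM under the KD_NC label and 91.5 ± 1.56 RPKM under the KD_OE label (SD, n = 3). MCL1 made up 86.4%, 82.5% and 83.0% of it. The sum holds MCL1, BCL2L1 and BCL2 alone, so these are not shares of all pro-survival transcripts. BCL2L2, which encodes BCL-w and is left out, stood at 33.9, 36.2 and 32.5 RPKM in the control libraries. BCL2L1 stood at 16.96 to 18.85 RPKM there. The effector sum was 54.0 ± 4.52, 44.9 ± 7.24 and 31.4 ± 1.03 RPKM in control, KD_NC and KD_OE. In the same order the BH3-only sum was 56.5 ± 0.309, 80.6 ± 12.3 and 82.8 ± 1.87 RPKM. BIK and PMAIP1 carried most of the latter, with 47.0% and 17.0% in control, 54.9% and 21.7% under the KD_NC label and 52.2% and 23.5% under the KD_OE label. The sum of all 7 pro-death genes moved little, at 110 ± 4.73, 125 ± 17.8 and 114 ± 2.83 RPKM, since the effectors were lower where the BH3-only sum was higher.

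The ratio of the pro-survival to the pro-death sum was 1.17 to 1.26 in the control libraries, 0.754 to 0.874 under the KD_NC label and 0.785 to 0.815 under the KD_OE label. Control did not overlap with either other group, and those overlapped with each other. Without BIK, whose short length weights it, the ratio was 1.51 to 1.71, 1.19 to 1.38 and 1.26 to 1.34, again with control apart. Against the BH3-only genes alone the ratio was 2.34 ± 0.0230, 1.295 ± 0.130 and 1.10 ± 0.0160 (SD, n = 3). MCL1 relative to PMAIP1, whose product binds it, stood at 11.9 ± 0.870, 4.92 ± 0.395 and 3.90 ± 0.249 per length. BAK1 relative to BAX varied less, at 1.66 ± 0.0911, 1.61 ± 0.123 and 1.53 ± 0.0933. These ratios are descriptions of RNA levels in 9 libraries and carry no test. They hold for the genes summed alone, since the other BCL2 relatives are in neither sum. Of these, BCL2L2 stood at 28.7 to 36.2 RPKM over all libraries and BCL2L12 at 5.85 to 21.4 RPKM. On the pro-death or divergent side BOK, BAD, BNIP3, BNIP3L and BCL2L13 stood between 5.15 and 16.4 RPKM. Ratios with these relatives were not computed, so which sum is larger is not settled for the whole family.

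**Figure D3:**
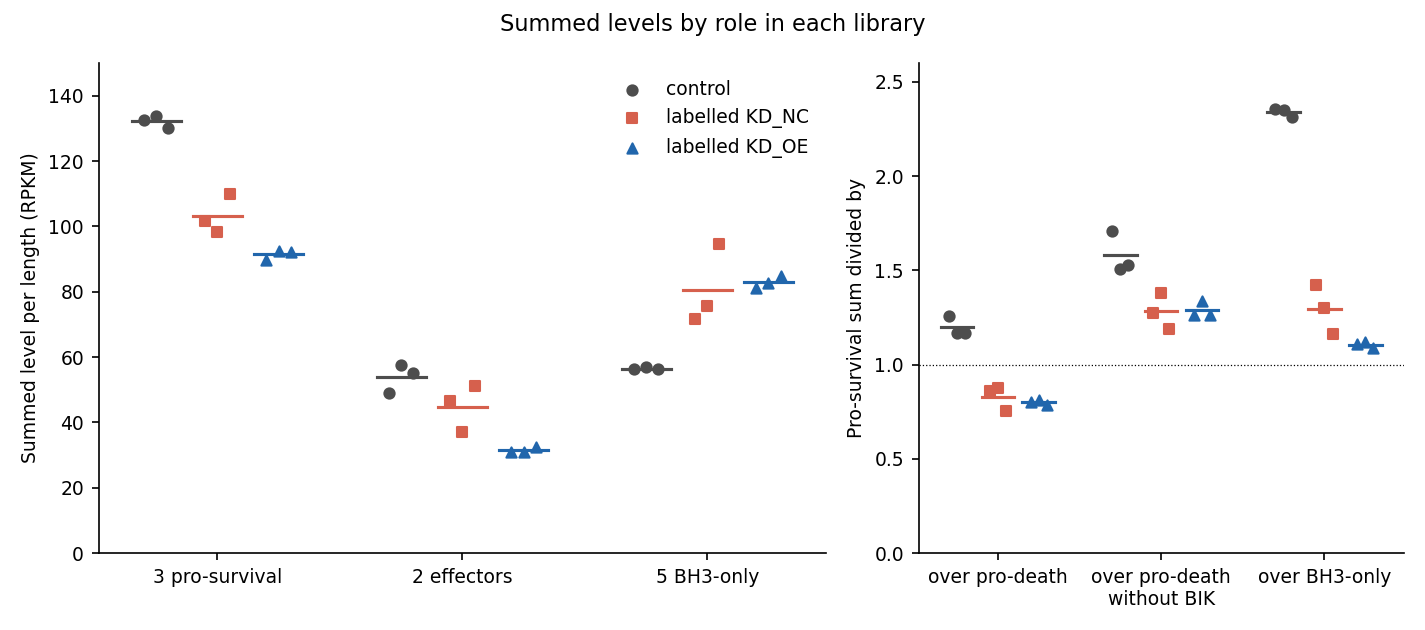
Left, summed RPKM of the 3 pro-survival, 2 effector and 5 BH3-only genes in each library (points) with group means (lines); right, the pro-survival sum divided by the pro-death sum, by the pro-death sum without BIK and by the BH3-only sum, with a dotted line at 1. The control libraries lie at 1.17 to 1.26 over the pro-death sum and all libraries of the other groups below 0.88. The sums leave out the other BCL2 relatives, so the side of the dotted line holds for the genes summed alone.

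Genes whose log2 CPM followed a member most closely over the 9 libraries were taken among 10366 protein-coding genes with a mean of at least 5 CPM, by the root mean square difference of centred values. For MCL1 these were NASP (0.0423), YY1 (0.0529) and TPM4 (0.0573), where the median gene stood at 0.323. For BAX they were IGFBP4, COX4I1 and RPL26L1 (0.0644 to 0.0709, median 0.372), and for BAK1 PHB2, HES1 and PTMA (0.0469 to 0.0573, median 0.378). PMAIP1 was followed by GBP3, PHLDA1 and FGFR1OP2 (0.0914 to 0.0957, median 0.551) and BIK by SNAPC1, RIPK2 and AP3S1 (0.0770 to 0.0856, median 0.470). For BBC3, the lowest of the called members, the nearest were COL27A1, PLA2G6 and ABCC10, at 0.213 to 0.221 (median 0.690). Among the 10 genes themselves PMAIP1 and BIK were the second most alike pair (0.157) and MCL1 and BAK1 the next (0.178).

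The other BCL2 relatives numbered 13, of which 12 could be tested, BCL2L10 having 1 count in all libraries. Of 3 tested pro-survival relatives, 1 was called higher and 1 lower under the KD_NC label against control, 2 lower between the libraries labelled KD_OE and those labelled KD_NC, and 1 higher and 1 lower between KD_OE and control. Of all genes tested, 34.6%, 49.2% and 56.3% were called in these comparisons. BCL2L2, which encodes BCL-w, was not called in any comparison (127 to 143 CPM as group means). BCL2L12, a divergent member, fell under both labels, from 42.7 CPM in control to 29.2 CPM and 13.6 CPM (log2 -0.55 and -1.65, edgeR adjusted p = 0.00104 and 1.56e-09), although it shares exon sequence with IRF3 on the other strand, which held more counts. BCL2A1, an inducible pro-survival gene, had 2, 1 and 1 counts in control, 20, 14 and 18 under the KD_NC label and 3, 6 and 7 under the KD_OE label. It was called higher in both against control (adjusted p = 0.000378 and 0.0416) and lower between them (adjusted p = 0.0136), and no fold change is given because control lies below the 3 counts taken as the floor.

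Of 9 pro-death or divergent relatives, 3 were called higher and 1 lower under the KD_NC label against control, 2 higher and 4 lower between KD_OE and KD_NC, and 3 higher and 1 lower between KD_OE and control. That is 44.4%, 66.7% and 44.4% called, against 34.6%, 49.2% and 56.3% of all genes. BOK, a further pore-forming relative, stood at 31.4, 40.1 and 21.7 CPM in control, KD_NC and KD_OE, a rise of 0.35 followed by a fall of 0.89 on the log2 scale (adjusted p = 0.0236 and 5.38e-06). HRK, a BH3-only gene of low level, rose from 1.84 CPM in control and 2.11 CPM under the KD_NC label to 4.43 CPM under the KD_OE label (log2 1.25 and 1.06, adjusted p = 0.000987 and 0.00362). BMF, a BH3-only gene linked to the cytoskeleton, had 8 to 15 counts in control, 24 to 34 under the KD_NC label and 4 to 12 under the KD_OE label, so that it rose and fell (log2 1.18 and -1.75, adjusted p = 0.0339 and 0.00268). BCL2L15 fell between the libraries labelled KD_NC and those labelled KD_OE (log2 -1.72, edgeR adjusted p = 0.00752), from 12 to 26 counts to 3 to 7. The mitophagy receptors went different ways: BNIP3 rose 1.55-fold and BNIP3L fell 1.20-fold under the KD_NC label (adjusted p = 4.15e-05 and 0.0448), and under the KD_OE label both stood above control, 1.25-fold and 1.5-fold (adjusted p = 0.00693 and 3.98e-05). BAD, which shares exon bases with GPR137 on the other strand, BCL2L13 and BCL2L14 were not called in any comparison, with adjusted p from 0.0511 to 0.92.

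**Figure D4:**
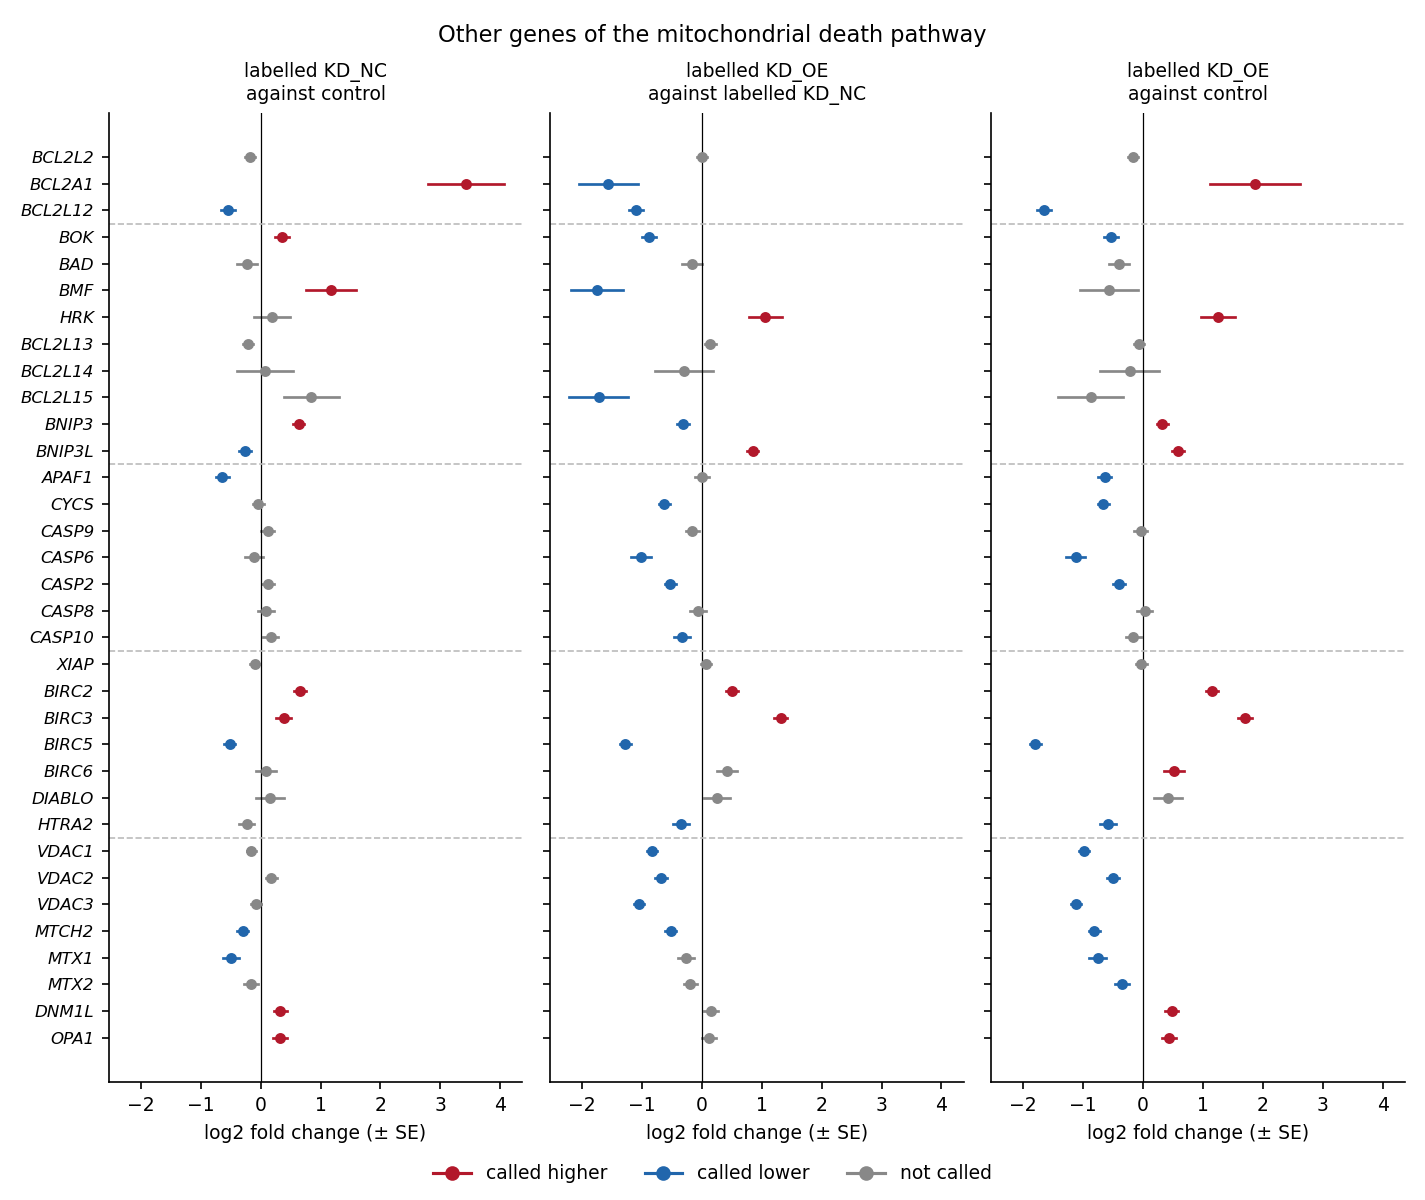
Log2 fold change ± SE of the other BCL2 relatives and of further genes in the 3 comparisons, coloured where edgeR's adjusted p was under 0.05. The further genes are those of the apoptosome, caspases, caspase inhibitors and their antagonists, outer-membrane partners and mitochondrial shape. In the middle panel 4 of 7 apoptosome and caspase genes are called lower and none higher. The same holds for 4 of 8 genes for outer-membrane partners and mitochondrial shape. Of all genes, 25.6% are called lower there and 23.7% higher. The point of BCL2A1 against control rests on 1 or 2 counts per control library.

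Of 7 apoptosome and caspase genes, 0 were called higher and 1 lower under the KD_NC label against control (median log2 0.09). Between KD_OE and KD_NC 0 were higher and 4 lower (median -0.33), among them CASP2 (log2 -0.53) and CASP10 (-0.33). Between KD_OE and control 0 were higher and 4 lower (median -0.40). Not all 7 act downstream of the effectors, since caspase-8 activates BID. Of all genes tested, 34.6% were called in the comparison of KD_NC with control (16.0% higher and 18.5% lower). The share was 49.2% for KD_OE with KD_NC (23.7% higher and 25.6% lower) and 56.3% for KD_OE with control (27.9% higher and 28.4% lower). The same shares are the background for the lists that follow. APAF1, the scaffold of the apoptosome, fell 1.56-fold from control under the KD_NC label (log2 -0.64, adjusted p = 0.000224). CYCS, which encodes cytochrome c, stood at 212 and 206 CPM in control and under the KD_NC label and fell to 134 CPM under the KD_OE label (log2 -0.66 and -0.62, edgeR adjusted p = 4.24e-06 and 1.22e-05). CASP6, the gene of an executioner caspase, fell 2.02-fold between KD_NC and KD_OE (adjusted p = 3.81e-05). CASP6 shares exon bases with MCUB on the other strand, which held more counts. The genes of the initiators CASP8 and CASP9 were not called in any comparison.

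Among 7 caspase inhibitors and their antagonists, 2 rose and 1 fell under the KD_NC label against control (median log2 0.09), 2 rose and 2 fell between KD_OE and KD_NC (median 0.25), and 3 rose and 2 fell between KD_OE and control (median 0.42). BIRC2 and BIRC3, which encode the ubiquitin ligases cIAP1 and cIAP2, rose 1.57-fold and 1.3-fold under the KD_NC label (adjusted p = 5.26e-05 and 0.0168) and stood 2.23-fold and 3.24-fold above control under the KD_OE label (adjusted p = 1.22e-08 and 7.7e-10). BIRC5, which encodes survivin, a protein of mitosis as well as a caspase inhibitor, fell from 327 CPM to 229 CPM and 94.2 CPM (adjusted p = 0.000214 and 1.82e-11 against control). XIAP was not called, and HTRA2, an antagonist released from mitochondria, was 1.5-fold lower under the KD_OE label than in control (adjusted p = 0.000775), although it shares exon bases with the more abundant AUP1 on the other strand.

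Of 8 genes for outer-membrane partners and mitochondrial shape, 2 rose and 2 fell under the KD_NC label against control (median log2 -0.11), 0 rose and 4 fell between KD_OE and KD_NC (median -0.39), and 2 rose and 6 fell between KD_OE and control (median -0.63). That is 50%, 50% and 100% called, against 34.6%, 49.2% and 56.3% of all genes. The channel genes VDAC1 and VDAC3 fell 1.78-fold and 2.07-fold between the libraries labelled KD_NC and those labelled KD_OE (edgeR adjusted p = 1.38e-07 and 1.47e-08). VDAC2, whose product holds BAK1 in the outer membrane, fell there by 0.68 on the log2 scale (adjusted p = 1.07e-05). MTCH2, the receptor of truncated BID, fell by 0.30 under the KD_NC label and by 0.81 under the KD_OE label against control (adjusted p = 0.017 and 5.1e-07). MTX1, a metaxin of the outer membrane, fell 1.41-fold under the KD_NC label (adjusted p = 0.00686). DNM1L and OPA1, which drive mitochondrial fission and inner membrane fusion, rose 1.25-fold each under the KD_NC label (adjusted p = 0.0272 and 0.0399).

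A list of 8 genes acts on MCL1 and BH3-only proteins after translation, through turnover or, for DYNLL1 and DYNLL2, through binding. Of the 8, 1 rose and 1 fell under the KD_NC label against control (median log2 -0.05). Between KD_OE and KD_NC 2 rose and 2 fell (median 0.11), and between KD_OE and control 3 rose and 2 fell (median 0.12). Those that fell were DYNLL1 and DYNLL2 alone, so none of the turnover genes was called lower. HUWE1, a ubiquitin ligase of MCL1, rose 1.63-fold between the libraries labelled KD_NC and those labelled KD_OE (adjusted p = 8.48e-05), and CUL5 rose 1.69-fold (adjusted p = 4.35e-05). USP9X, a deubiquitinase that stabilises MCL1, stood 1.24-fold and 1.44-fold above control (edgeR adjusted p = 0.037 and 0.000551). The dynein light chain genes DYNLL1 and DYNLL2, whose products bind BIM and BMF, fell 1.49-fold and 1.17-fold between KD_NC and KD_OE (adjusted p = 0.00023 and 0.0297).

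Upstream, 13 genes for transcription factors known to act on the family were counted. Under the KD_NC label 4 rose and 7 fell against control (median log2 -0.27), 6 rose and 3 fell between KD_OE and KD_NC (median 0.16), and 3 rose and 4 fell between KD_OE and control (median 0.01). That is 84.6%, 69.2% and 53.8% called, against 34.6%, 49.2% and 56.3% of all genes. DDIT3, which encodes CHOP, rose from 5.60 CPM in control to 10.8 CPM under the KD_NC label and 73.2 CPM under the KD_OE label (log2 0.95 and 3.71, edgeR adjusted p = 5.8e-05 and 2.17e-13). ATF4, a regulator of PMAIP1 and DDIT3 under stress, fell 1.39-fold under the KD_NC label and rose 1.52-fold from there to the KD_OE label (adjusted p = 0.000772 and 3.55e-05). STAT3, a regulator of MCL1, fell from 259 CPM in control to 168 CPM under the KD_NC label (log2 -0.63, adjusted p = 1.29e-05). E2F1 fell 2.45-fold between KD_NC and KD_OE (adjusted p = 1.92e-08). FOXO1, which induces BCL2L11 and BBC3 in starved cells, rose 1.66-fold under the KD_NC label and fell 1.32-fold from there to the KD_OE label (adjusted p = 0.000655 and 0.0253), and ATF3 stood 1.99-fold above control under the KD_OE label (adjusted p = 1.07e-07). DDIT3 shares exon bases with MARS and MBD6 on the other strand, so part of its counts may belong to those genes.

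Stress response genes outside the family were counted as well. The list of 18 tested genes joins the integrated stress response, which ATF4 directs, with targets of the unfolded protein response such as HSPA5 and DNAJB9. Under the KD_NC label 3 rose (ERO1A, HSPA5 and DNAJB9) and 11 fell against control (median log2 -0.47), where 16.0% and 18.5% of all genes did. Between KD_OE and KD_NC 17 rose and 0 fell (median 1.59, where 23.7% of all genes rose). Between KD_OE and control 15 rose and 0 fell (median 1.15, where 27.9% rose). TRIB3, a target of CHOP, and PSAT1, an enzyme of serine synthesis, rose 3.60-fold and 3.14-fold between KD_NC and KD_OE (adjusted p = 1.41e-11 and 3.04e-11). HSPA5, the chaperone of the endoplasmic reticulum, rose in both groups against control, 2.67-fold and 7.74-fold (edgeR adjusted p = 1.15e-09 and 4.8e-14). DNAJB9, a co-chaperone of HSPA5, rose 2.70-fold and PHGDH, the first enzyme of serine synthesis, fell 2.18-fold under the KD_NC label (adjusted p = 1.09e-06 and 2.88e-08). SESN2, a stress-induced regulator of growth signalling, fell 2.14-fold under the KD_NC label (adjusted p = 1.63e-07) and rose 3.58-fold from there to the KD_OE label (adjusted p = 6.37e-11). Reads of DNAJB9, which overlaps THAP5 on the other strand, may in part be of that gene. Over the same steps the log2 differences of BBC3 were -0.57 (not called) and 1.20, and those of PMAIP1 were 0.86 and 0.16 (not called).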

How the data were processed

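Per the labels' protocols, Trizol was used to extract total RNA, and the NEBNext Ultra kit used for the libraries gives reads without strand. A single table with raw counts per gene, gene lengths, names and positions was deposited. Named in the submitters' processing notes, with no roles, are featureCounts 1.5.0-p3, HISAT2 2.0.5, StringTie 1.3.3b and the build hg19, but 58735 of 58735 deposited gene positions equal those of GENCODE release 29 on GRCh38. How strand and reads in several genes were handled was not given in the sources used here.

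The deposited counts entered edgeR 4.0.16 in R 4.3.3 with filterByExpr (minimum count 10, by group), TMM scaling and a robust quasi-likelihood fit to all 9 libraries (6 residual degrees of freedom). The F test was applied to the 3 group contrasts with Benjamini-Hochberg adjustment over 16812 genes and a threshold of 0.05. For SE, the size of the log2 fold change was divided by the root of F. CPM are scaled by TMM, and RPKM use the deposited gene length. Shared exons were counted in the annotation, and promoter windows were matched by symbol in a RefSeq table. The steps were tested on simulated counts in which far fewer genes were changed than were called here. That test therefore does not cover differences as widespread as those in these libraries.

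The 10 genes and the other gene lists were chosen with earlier results of these data known. Named besides the 10 genes are all BCL2 relatives, from each list reported here up to 2 higher and 2 lower called genes with the lowest adjusted p per contrast, and, for members called with at least a 1.5-fold change, the 3 genes most alike. CASP8, CASP9, XIAP, VDAC2 and a few further values of listed genes were added after their values were seen. A further list and some genes of the others are not reported here, and those genes were left out of the counts. Alternatives were other scalings, no count filter, a replicate block, a GC content and length correction, the 2 compared groups alone, DESeq2 1.42.0 and leaving out each library.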

Additional observations from a re-analysis of the deposited data

How the results depend on the processing

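Each of the 30 log2 differences of the 10 genes was recomputed under 16 alternatives, and of these values 429 kept direction and side of the threshold, 24 lost the call, 17 gained one and 10 changed sign. The falls of MCL1 and the rises of PMAIP1 and BIK under the KD_NC label, the falls of BAX and BAK1 and the rise of BBC3 from KD_NC to KD_OE, and the differences of MCL1, BAX, BAK1, PMAIP1 and BIK between KD_OE and control were called under all 16. Under the KD_NC label against control, 1 member rather than 2 was called lower with upper-quartile factors and with only the compared libraries, and 1 to 3 when a library was left out (3 without the first or the third library labelled KD_NC). Of all genes, 3116 were called lower with the main settings and 2682 and 2488 with those alternatives. When a library was left out, 2299 to 3366 of all genes were called lower. From KD_NC to KD_OE, leaving out a library gave 1 to 2 members called higher (2 without the third library labelled KD_NC) and 2 to 5 called lower (5 without the second). Of all genes called there, 46.3% were higher without the third and 43.9% without the second, against 48.1% with the main settings. Leaving out a library moved BCL2L1 under the KD_NC label between -0.060 and 0.146 (below 0 without the first control or the first or the third library labelled KD_NC), BCL2 between -0.025 and 0.448 (below 0 without the first control) and BID between -0.157 and 0.158 (below 0 without the first control or the third library labelled KD_NC). BIK from KD_NC to KD_OE lay between -0.142 and 0.109 (above 0 without the third library labelled KD_NC) and at 0.025 with upper-quartile factors. Between KD_OE and control BCL2L1 turned to 0.082 with the GC content and length correction and BCL2L11 to 0.042 with upper-quartile factors, which shifted the median of all genes there by 0.10 on the log2 scale. Without length BIK moved from place 3 to 7 in control and from 2 to 6 in each other group. The cause of these changes was not tested.

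Replicate numbers did not pair the libraries, since deviations of same-numbered libraries correlated at -0.11 to 0.06 and those of other numbers at -0.19 to 0.13. With the replicate block, BAK1 under the KD_NC label had an adjusted p of 0.0505 (log2 -0.29), BBC3 passed there (log2 -0.61, adjusted p = 0.0427) and BID from KD_NC to KD_OE did not (log2 -0.29, adjusted p = 0.0547). With the block 2 members were called higher and 2 lower under the KD_NC label, where 2471 of all genes were called higher and 2905 lower. Depth limits BCL2 (11 to 24 counts per library) most.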
